A study of Mus musculus with 4 samples.

Results

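The genes that write, copy and remove DNA methylation were described in 4 single mouse embryos at embryonic day 5.5. The 9 members were given as a list of DNA methyltransferases, TET dioxygenases and cofactors: Dnmt1, Uhrf1, Dnmt3a, Dnmt3b, Dnmt3l, Tet1, Tet2, Tet3 and Tdg. Each was found by its symbol among the 47885 rows of the count table, and all 9 were among the 15563 genes that passed a filter on low counts. The study asked how loss of Mettl14, a subunit of the complex that writes N6-methyladenosine on RNA, alters the early embryo. All embryos were of the C57BL/6 background, and each library was made from the amplified polyadenylated RNA of 1 whole embryo. The 2 control embryos are labelled Mettl14+/+ (WT replicates 1 and 2), and the 2 mutant embryos are labelled Mettl14-/- (KO replicates 1 and 2). Per the labels' protocols, embryos were sorted into these genotypes once the libraries had been sequenced, from a Mettl14 qPCR on some of the amplified cDNA, so a control that expressed Mettl14 could also be heterozygous. The sources used here name neither the deleted segment nor the driver of the deletion.

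DNA methylation in mammals is placed on cytosines of CpG dinucleotides. Dnmt3a and Dnmt3b add it to unmethylated DNA with the help of Dnmt3l, which has no catalytic activity of its own. Dnmt1 copies it to the new strand after replication, guided by Uhrf1, a protein that binds hemimethylated CpG. Tet1, Tet2 and Tet3 oxidise methylcytosine, and Tdg excises the more oxidised forms for base excision repair. The early postimplantation stage, sampled here, is when the epiblast regains methylation that was lost up to the blastocyst stage. No DNA methylation and no m6A was measured in these samples, only RNA.

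No member passed the test between KO and WT. Uhrf1 and Dnmt3b had lower values in both KO embryos than in either WT embryo, and Tet2 and Dnmt3l had higher values in both. Dnmt1, Tet1, Tet3 and Tdg overlapped between the groups. Dnmt3a did not overlap after TMM scaling, the main scaling here, but did when counts were divided by library totals. Expression is given as CPM, counts scaled to the effective library size after TMM, unless stated otherwise, and fold changes are KO over WT.

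The start regions of the 4 members whose groups stayed apart under both scalings are shown because they differ widely in CpG content. They are the 250 bases before the start annotated by RefSeq on GRCm38.p6 (mm10), written 5′ to 3′ on the strand of the gene, with CpG in capitals. For Uhrf1 and Dnmt3l, which have 2 and 3 annotated starts, the most upstream is shown. The Tet2 and Dnmt3l windows lie within the gene coordinates of GENCODE M21 given below. Which start these embryos used was not examined. The Dnmt3b window lies at chr2:153649199-153649448 on the plus strand, and the Tet2 window at chr3:133544391-133544640 on the minus strand. The Uhrf1 window lies at chr17:56303087-56303336 and the Dnmt3l window at chr10:78042037-78042286, both on the plus strand.
Dnmt3b: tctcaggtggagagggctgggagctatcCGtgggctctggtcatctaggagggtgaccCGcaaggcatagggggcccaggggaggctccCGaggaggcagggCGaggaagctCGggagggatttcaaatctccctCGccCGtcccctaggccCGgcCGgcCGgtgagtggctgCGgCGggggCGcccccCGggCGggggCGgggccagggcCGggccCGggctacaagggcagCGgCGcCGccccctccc
Tet2: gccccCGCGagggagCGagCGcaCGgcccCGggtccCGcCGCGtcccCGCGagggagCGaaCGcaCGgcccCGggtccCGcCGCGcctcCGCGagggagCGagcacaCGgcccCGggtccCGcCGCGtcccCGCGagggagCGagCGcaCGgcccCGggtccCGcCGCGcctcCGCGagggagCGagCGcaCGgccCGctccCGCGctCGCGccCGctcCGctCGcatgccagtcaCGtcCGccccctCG
Uhrf1: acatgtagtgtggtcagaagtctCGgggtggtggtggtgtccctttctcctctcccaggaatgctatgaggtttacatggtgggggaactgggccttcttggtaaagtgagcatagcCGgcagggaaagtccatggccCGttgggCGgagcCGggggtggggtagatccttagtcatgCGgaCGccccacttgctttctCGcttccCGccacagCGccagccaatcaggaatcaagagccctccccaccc
Dnmt3l: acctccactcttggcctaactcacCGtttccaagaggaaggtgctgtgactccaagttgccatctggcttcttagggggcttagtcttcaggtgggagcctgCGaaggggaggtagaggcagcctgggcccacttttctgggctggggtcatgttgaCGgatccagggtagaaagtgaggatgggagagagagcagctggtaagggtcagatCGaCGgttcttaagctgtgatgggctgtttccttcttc
The Tet2 window held 51 CpG, a number reached by 0.067% of the 32851 windows of this length in the RefSeq table, whose median was 6. The Dnmt3b window held 21, reached by 16.3% of windows. The Uhrf1 window held 10, and the second Uhrf1 start had 30. The Dnmt3l window held 5, which is below the median, and it overlaps an exon of Aire on the opposite strand. Over all 16 windows of the 9 members, 12 lay above the median. Tet2 and Dnmt3l, both higher in KO, had the most and the fewest CpG of the 4 windows shown. A link between CpG content and the RNA difference was not tested.

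Simple promoter motifs were searched on both strands of the same windows. The GC box GGGCGG was present in 8 of 9 members, in 11 of their 16 windows, against 32.7% of all windows. It contains a CpG, so CpG-rich windows hold it more readily. The CCAAT box was present in 6 of the 16 member windows, of 4 members, and in 33.8% of all windows. The E-box CACGTG was in 3 of the 16, of 3 members, and in 6.02% of all windows. TATAAA was in no member window and in 12.4% of all windows. A match is a description of the letters, not a bound site.

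Per length of exon, Dnmt3b was the most abundant member in each of the 4 embryos, at 237 and 170 CPM per kb in WT, against 110 and 138 in KO. In WT, Uhrf1 came next at 43.8 and 45.3 CPM per kb, followed by Dnmt3l at 33.3 and 39.6 and Tdg at 24 and 33.5. Dnmt1 at 16.6 and 11.2 and Dnmt3a at 11.5 and 10.5 came after them. The ranges of Dnmt3l and Tdg overlapped, as did those of Dnmt1 and Dnmt3a, although within each WT embryo Dnmt3l was above Tdg and Dnmt1 above Dnmt3a. Tet1 followed at 10.1 and 6.93 CPM per kb. Tet3 at 1.88 and 1.2 and Tet2 at 0.227 and 0.285 closed the order without overlap. In KO, Dnmt3l stood second at 49.1 and 47.9 CPM per kb, above Tdg at 24.3 and 33.1 and Uhrf1 at 26.2 and 22.3, whose order differed between the KO embryos. Dnmt1 at 11.4 and 7.87 CPM per kb, Dnmt3a at 9.28 and 10.2 and Tet1 at 9.73 and 5.73 overlapped in KO. The ranges of Tet3 at 1.28 and 0.711 and Tet2 at 1.05 and 0.43 overlapped too, with Tet3 above Tet2 within each KO embryo. The places of Dnmt3a and Tdg depend on the length used, because their annotated exons are much longer than their coding sequences. Per kb of coding sequence Tdg had 102 and 143 CPM in WT, above Uhrf1 at 79.5 and 82.3 and Dnmt3l at 78.8 and 93.8. In KO it had 103 and 141, and its range overlapped that of Dnmt3l at 116 and 113. Per kb of coding sequence Dnmt3a had 70.3 and 64 CPM in WT, against 56.7 and 62.2 in KO, above Dnmt1 at 25.2 and 17 in WT, against 17.4 and 11.9 in KO.

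Library depth ran from 16108062 to 28698541 counts, so that 1 count equalled 0.0359 to 0.059 CPM. Mettl14 itself had 34 and 31.6 CPM in WT, against 4.63 and 8.04 in KO, which follows the labels but is not independent of them, since the gene assigned the genotype. Its log2 fold change was -2.37 (SE 0.45), with an adjusted p of 0.274 by edgeR and 0.000386 by DESeq2. The expression profiles of any pair of embryos correlated between 0.879 and 0.943 across genes on the log2 scale. The highest value was between the WT embryos and the lowest between WT replicate 1 and KO replicate 2. KO replicate 1 correlated at 0.93 with WT replicate 1 and 0.925 with WT replicate 2, and at 0.923 with KO replicate 2. The KO embryos were thus no closer to each other than KO replicate 1 was to WT. Epiblast markers such as Pou5f1 were present in all embryos, at 1500 and 1745 summed CPM in WT, against 1439 and 2287 in KO. Extraembryonic ectoderm markers summed to 595.6 and 681 CPM in WT, against 984.5 and 637.9 in KO. Marker lists of 3 other tissues differed between the groups. The 9 visceral endoderm markers summed to 701.2 and 1855 CPM in WT, against 253.7 and 331.4 in KO. Of them, 8 were lower without overlap, against 18.8% of all genes. The 6 ectoplacental cone and giant cell markers, with Tpbpa at 0 throughout, summed to 176.4 and 291.6 in WT, against 1209 and 624.3 in KO. Of them, 4 were higher without overlap, against 19.4% of all genes. The 5 maternal decidua markers summed to 15.62 and 23.41 in WT, against 2.172 and 1.184 in KO. The 4 blood markers summed to at most 2.26 CPM in any embryo, with Hbb-bt at 0. The part of these tissue differences in the values of the members was not tested. In RNA of a whole embryo, fewer cells of a type and less RNA per cell cannot be told apart.

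**Figure D1:**
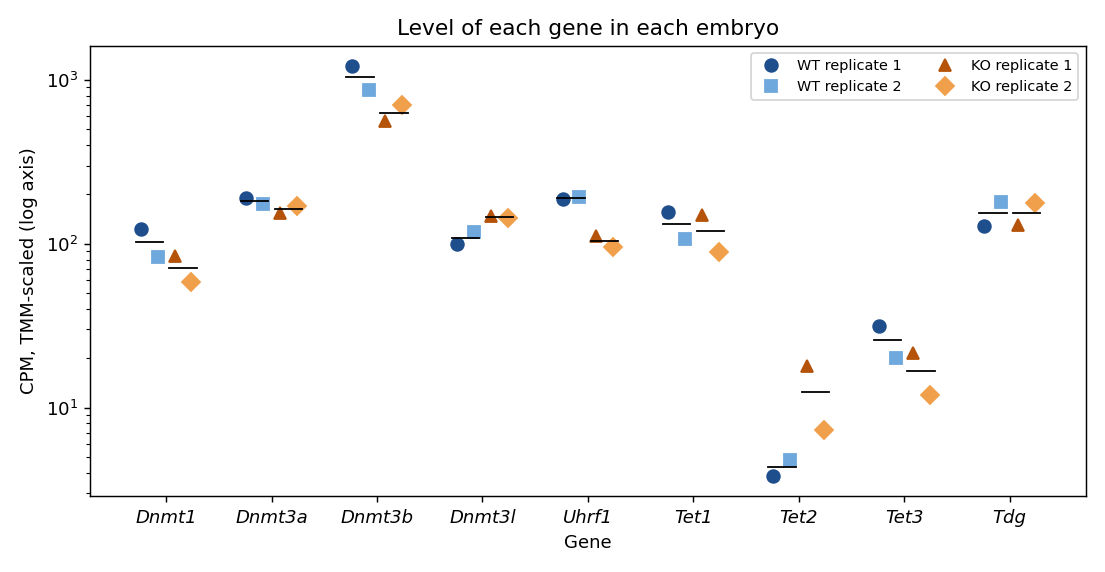
CPM of each member (log axis) in each embryo, WT replicates 1 and 2 and KO replicates 1 and 2. Uhrf1 and Dnmt3b lie lower, and Tet2 and Dnmt3l higher, in both KO embryos, while Dnmt1, Tet1, Tet3 and Tdg overlap.

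Among all 15563 genes tested, edgeR called 0% at an adjusted p under 0.05, and 0 of the 9 members. DESeq2 called 1.64% of the genes it tested and 0 members, and limma-voom called 0 members. At an unadjusted p under 0.05 by edgeR, 3 of 9 members passed, 1 higher and 2 lower, against 7.82% of all genes. Both KO embryos lay above both WT embryos for 2 members, against 19.4% of all genes, and below them for 3 members, against 18.8%. The shares without overlap are 2 and 3 of 9 genes, a number too small to be set apart from these backgrounds. Of the members, 2 had a positive and 7 a negative log2 fold change, with a median of -0.17, and the median of all genes tested was -0.03. An exact permutation test of 2 embryos against 2 cannot give a two-sided p below 0.333, so no single gene can be called by it.

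**Figure D2:**
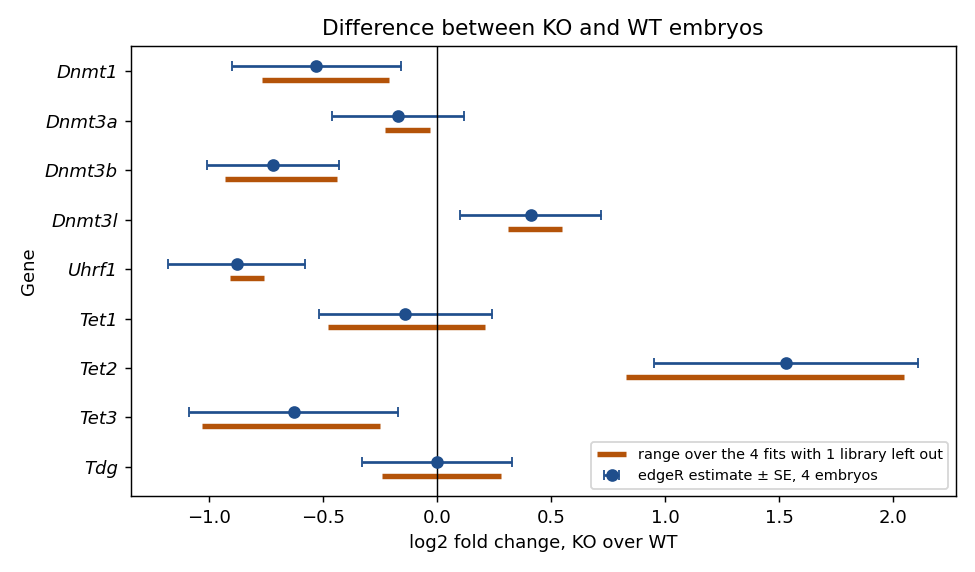
Log2 fold change of KO over WT by edgeR for each member with its standard error (thin capped bars), 2 embryos per group. Thick lines give the range of the fits with each embryo left out in turn. Tet2 stands highest at 1.53 and Uhrf1 lowest at -0.88, and no member passed an adjusted p of 0.05.

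Uhrf1 (ENSMUSG00000001228, chr17:56303321-56323486, plus strand in GENCODE M21), the reader that brings Dnmt1 to hemimethylated DNA, had 187 and 193 CPM in WT (replicates 1 and 2, in this order throughout), against 112 and 95.2 in KO. Both KO embryos were below both WT embryos, and the WT embryos differed by 0.05 on the log2 scale while the KO embryos differed by 0.23. The WT mean was 189.8 ± 4.51 CPM (SD, n = 2) and the KO mean 103.4 ± 11.7 (SD, n = 2), a level 1.83-fold higher in WT. The log2 fold change was -0.88 (SE 0.30), with an unadjusted p of 0.0195 and an adjusted p of 0.524 by edgeR, and an adjusted p of 0.276 by DESeq2. Uhrf1 had the most even values within the WT group of the members with lower values. With each embryo left out in turn its log2 fold change ran from -0.91 to -0.76.

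Dnmt1 (ENSMUSG00000004099, chr9:20907209-20959888, minus strand), the maintenance methyltransferase, had 123 and 82.5 CPM in WT, against 84.4 and 58.1 in KO. WT replicate 2 was just below KO replicate 1, so the groups overlapped. On the log2 scale, KO over WT was -0.53 (SE 0.37), and edgeR gave an adjusted p of 0.825. The embryos within each group differed by 0.57 in WT and 0.54 in KO on the log2 scale, as much as the groups did. The ratio of Uhrf1 to Dnmt1 per exon length was 2.63 and 4.05 in WT, against 2.29 and 2.84 in KO, and these ranges overlapped too.

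Uhrf1 and Dnmt1 mRNA are both known to peak in S phase, and 13 other S phase genes were therefore set beside them. Their summed level was 3111 and 4381 CPM in WT, against 2822 and 3118 in KO. KO replicate 2 was just above WT replicate 1 in this sum, so the groups overlapped, and WT replicate 2 stood apart as the highest. Of the 13, 3 had higher and 10 lower values in KO, and 0 were called by edgeR or DESeq2. Without overlap, 7 were lower, against 18.8% of all genes, and 1, Cdt1 at 0.05, was higher, against 19.4%; by library totals Cdt1 overlapped. The median log2 fold change was -0.25. The smallest unadjusted p belonged to 3 of the 6 replication helicase genes listed and to Rrm2. Mcm4 stood at -0.72 (SE 0.29), Mcm2 at -0.60 (SE 0.28) and Mcm6 at -0.69 (SE 0.35). Rrm2, a subunit of ribonucleotide reductase, stood at -0.58 (SE 0.30). As a share of the S phase sum, Uhrf1 was 6% and 4.4% in WT, against 3.96% and 3.05% in KO, so its groups stayed apart. Dnmt1 was 3.94% and 1.88% in WT, against 2.99% and 1.86% in KO, with overlap. The part of the S phase genes in the Uhrf1 difference was not tested.

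In the main fit, the other genes of maintenance and recruitment gave the most one-sided counts of the pathway lists. Of 10, all tested, 9 had lower values in KO and 1, Zfp57, had a higher value, at 0.22 (SE 0.42). Of the 9 lower, 7 did not overlap between the groups, where 18.8% of all genes were lower without overlap, and by library totals 5 did not. By library totals, 50% of this list was lower without overlap, against 57.1% of the methyl donor genes and 53.8% of the S phase genes. The median log2 fold change was -0.46. None was called by edgeR or by DESeq2, and 1 had an unadjusted p under 0.05 by edgeR. That gene was Dppa3, which guards maternal methylation in the zygote and restrains Uhrf1. It had 24.2 and 24.5 CPM in WT, against 4.67 and 13.6 in KO, with a log2 fold change of -1.41 (SE 0.55) and an adjusted p of 0.58 by edgeR. KO replicate 1 had the lowest value, and the KO embryos differed more from each other than the WT embryos did. Uhrf2, a paralogue of Uhrf1, had 59.7 and 48.1 CPM in WT, against 38.9 and 23.4 in KO, with a log2 fold change of -0.79 (SE 0.39). Hells, a chromatin remodeller needed for methylation of repeats, had 477 and 342 CPM in WT, against 328 and 201 in KO, at -0.63 (SE 0.34). It separated the groups by TMM CPM but not by library totals. Trim28, the corepressor that carries silencing to imprinted genes and retroelements, had 531 and 457 CPM in WT, against 340 and 360 in KO, at -0.50 (SE 0.27).

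Dnmt3b (ENSMUSG00000027478, chr2:153649450-153687730, plus strand), the main de novo enzyme of the postimplantation epiblast, had 1210 and 870 CPM in WT, against 559 and 705 in KO. Both KO embryos were below both WT embryos. WT replicate 2 and KO replicate 2 were the closest pair across groups, 0.30 apart on the log2 scale, less than the 0.47 between the WT embryos. The WT mean was 1040 ± 240 CPM (SD, n = 2) and the KO mean 632.3 ± 103 (SD, n = 2), a level 1.64-fold higher in WT. By edgeR the log2 fold change was -0.72 (SE 0.29), with an unadjusted p of 0.0367 and an adjusted p of 0.592 by edgeR, and an adjusted p of 0.552 by DESeq2. Leaving out 1 embryo moved the log2 fold change between -0.93 and -0.44, the latter without WT replicate 1.

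An antisense gene, Dnmt3bos, lies across the Dnmt3b start and shares no exon bases with it. It had 3.18 and 0.855 CPM in WT, against 5.57 and 8.18 in KO, both KO embryos above both WT embryos, with a log2 fold change of 1.77 (SE 0.75) and an adjusted p of 0.627 by edgeR. Its direction is opposite to that of Dnmt3b, and its level is a small part of the Dnmt3b level. Dnmt3c, a copy of Dnmt3b active in male germ cells, had 3 and 0 counts in WT, against 8 and 0 in KO.

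Dnmt3a (ENSMUSG00000020661, chr12:3806007-3914443, plus strand), the other de novo enzyme, had 191 and 174 CPM in WT, against 154 and 169 in KO. KO was lower on this scale, by 0.04 on the log2 scale between the nearest pair, and the groups overlapped by library totals. The log2 fold change was -0.17 (SE 0.29), and edgeR gave an adjusted p of 0.948. The interval of 1 SE on either side includes 0, and the data do not show that the level was equal. The opposite-strand gene Dnmt3aos, which shares 133 exon bases with it, had 0 counts in each embryo.

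Dnmt3l (ENSMUSG00000000730, chr10:78041947-78063622, plus strand), the catalytically inactive cofactor of Dnmt3a and Dnmt3b, had 99.5 and 118 CPM in WT, against 147 and 143 in KO. It was the one de novo gene with higher values in both KO embryos, which differed by only 0.04 on the log2 scale. The WT mean was 109 ± 13.4 CPM (SD, n = 2) and the KO mean 144.9 ± 2.63 (SD, n = 2), 1.33-fold higher in KO. In the fit, the log2 fold change was 0.41 (SE 0.31), with an adjusted p of 0.845 by edgeR, and it ran from 0.31 to 0.55 with each embryo left out. Exons of Aire on the opposite strand share 67 bases with Dnmt3l, and the reads do not keep strand. Aire had 51.1 and 34.9 CPM in WT, against 40.4 and 59.7 in KO, with overlap. The extraembryonic ectoderm marker sum was highest in KO replicate 1 and within the WT range in KO replicate 2, and the ectoplacental cone and giant cell sum was higher in both KO embryos. The part of these tissues in the Dnmt3l level was not tested.

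The balance within the Dnmt3 family restates the CPM differences above as shares of one total. Dnmt3b made up 84.1% and 77.3% of the family total per exon length in WT, against 65.2% and 70.4% in KO. Dnmt3l made up 11.8% and 18% in WT, against 29.2% and 24.4% in KO. Neither share overlapped between the groups. The Dnmt3b share averaged 80.7% ± 4.81 (SD, n = 2) in WT and 67.8% ± 3.66 (SD, n = 2) in KO, a difference of -12.9 points. The Dnmt3l share averaged 14.9% ± 4.34 (SD, n = 2) in WT and 26.8% ± 3.42 (SD, n = 2) in KO, a difference of 11.9 points. Dnmt3a held 4.08% and 4.75% in WT, against 5.53% and 5.19% in KO. Because shares of one total depend on each other, a lower Dnmt3b level raises the other shares. The ratio of Dnmt3l to the sum of Dnmt3a and Dnmt3b was 0.134 and 0.219 in WT, against 0.413 and 0.323 in KO, and the ratio of Dnmt3b to Dnmt3a was 20.6 and 16.3 in WT, against 11.8 and 13.6 in KO. By CPM, Dnmt3l was higher and both Dnmt3a and Dnmt3b were lower in KO without overlap. The separation of the Dnmt3l share and of its ratio was thus fixed by those values and is not a further result. The shares and ratios were given as a description, with no test run on them.

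**Figure D3:**
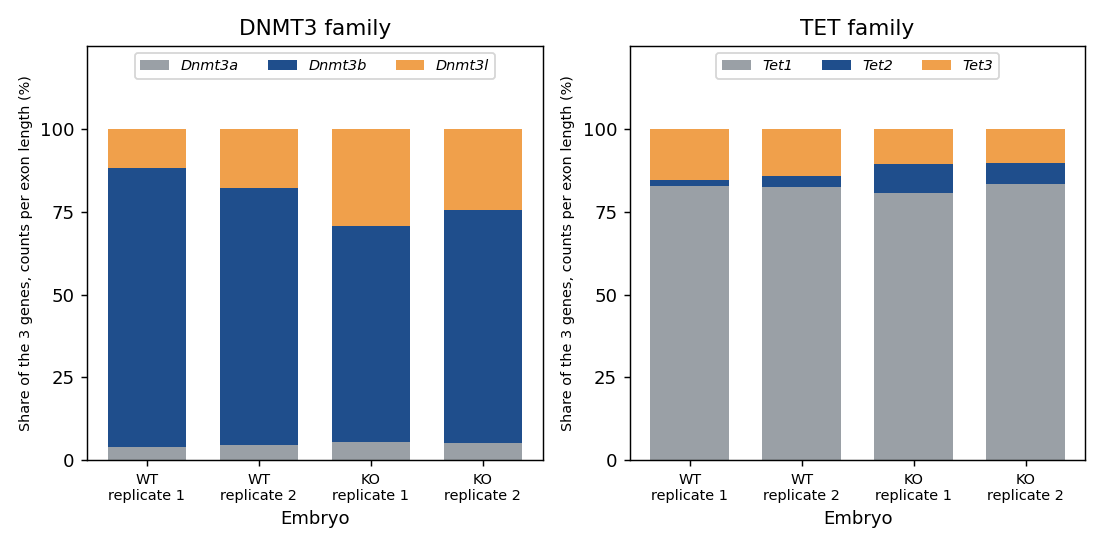
Share of each gene (percent, counts per exon length) in the Dnmt3 and the Tet family totals, for each embryo. The Dnmt3l share is 11.8% and 18% in WT, against 29.2% and 24.4% in KO, and the Tet2 share 1.87% and 3.39% against 8.72% and 6.25%.

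The 6 histone modifiers tied to de novo methylation were close to balanced, with 4 higher, 2 lower and 0 called by edgeR, and a median log2 fold change of 0.06. Setd2, which writes the H3K36 trimethylation that Dnmt3b binds, stood at 0.42 (SE 0.38) and Nsd1, which writes H3K36 dimethylation, at 0.14 (SE 0.33). The H3K4 demethylases Kdm1b and Kdm1a stood at -0.31 (SE 0.45) and 0.10 (SE 0.29). Kdm1b was the one gene of the list whose groups did not overlap, where 18.8% of all genes were lower without overlap. It shares exon bases with Dek on the opposite strand. Of the 10 genes listed as methyl-CpG readers or their relatives, 3 had higher and 7 lower values, with a median of -0.12 and 0 called by edgeR. Not every gene of this list need bind methylated CpG. Without overlap, 5 were lower, against 18.8% of all genes, and 3 were by library totals, where Mbd3 was higher without overlap. Mbd3, a subunit of the NuRD corepressor, stood at 0.70 (SE 0.37) with 202 and 262 CPM in WT, against 261 and 494 in KO. Mbd5 stood at -1.10 (SE 0.58), Mbd1 at -0.62 (SE 0.58) and the repair glycosylase Mbd4 at -0.20 (SE 0.38).

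Tet2 (ENSMUSG00000040943, chr3:133463679-133545139, minus strand), a TET dioxygenase without the CXXC domain of its relatives, had 3.83 and 4.81 CPM in WT, against 17.8 and 7.25 in KO, from 65 and 90 counts in WT, against 376 and 202 in KO. Both KO embryos were above both WT embryos, but KO replicate 1 was far above KO replicate 2, by 1.29 on the log2 scale. The WT mean was 4.321 ± 0.691 CPM (SD, n = 2) and the KO mean 12.5 ± 7.43 (SD, n = 2), 2.89-fold higher in KO. On the log2 scale, KO over WT was 1.53 (SE 0.58), with an unadjusted p of 0.0289 and an adjusted p of 0.567 by edgeR, and an adjusted p of 0.272 by DESeq2. Without KO replicate 1 it was 0.83, and without KO replicate 2 it was 2.05. KO replicate 1 was also the embryo with the highest sum of ectoplacental cone and giant cell markers, 1209 CPM, against 624.3 in KO replicate 2 and 176.4 and 291.6 in WT. The order of the 4 embryos by Tet2 was the order by that sum, and the part of that tissue in the Tet2 level was not tested.

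Tet1 (ENSMUSG00000047146, chr10:62804570-62908996, minus strand), the main TET enzyme of pluripotent cells, had 156 and 107 CPM in WT, against 150 and 88.6 in KO. Each group held 1 high and 1 low embryo. The log2 fold change was -0.14 (SE 0.38), with an adjusted p of 0.975 by edgeR, and its sign turned when WT replicate 1 or KO replicate 2 was left out. Tet3 (ENSMUSG00000034832, chr6:83362373-83459084, minus strand), the oxidase of the zygote, had 31.4 and 20 CPM in WT, against 21.4 and 11.9 in KO. The groups overlapped, at a log2 fold change of -0.63 (SE 0.46) and an adjusted p of 0.842 by edgeR. Tet1, Tet3 and Dnmt1 shared an order, with replicate 1 above replicate 2 in both groups. Replicate numbers are not said to mark a litter or a day.

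Within the TET family, Tet1 held 82.7% and 82.4% of the total per exon length in WT, against 80.7% and 83.4% in KO. Tet2 made up 1.87% and 3.39% in WT, against 8.72% and 6.25% in KO, a mean difference of 4.86 points. Tet3 made up 15.4% and 14.2% in WT, against 10.6% and 10.3% in KO, a mean difference of -4.35 points. As shares of the family, Tet2 and Tet3 separated the groups in opposite directions, although the CPM of Tet3 alone overlapped. Tet2 already separated the groups by CPM. Shares of one total depend on each other, so a higher Tet2 level lowers the other shares. The TET shares are a description, with no test run on them. The ratio of Tet2 to Tet1 was 0.0226 and 0.0411 in WT, against 0.108 and 0.0749 in KO, so Tet2 was a minor member in both groups.

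Of 8 TET partners and suppliers of the cofactor 2-oxoglutarate, 7 were tested, and Prdm14, a germ cell and pluripotency regulator, had 0 counts in each embryo. In KO, 4 had higher and 3 lower values, with a median of 0.21 and 0 called by edgeR or DESeq2. Cxxc5, a CXXC protein that binds unmethylated CpG and Tet2, had 46.8 and 40.3 CPM in WT, against 83.2 and 101 in KO. Both KO embryos were above both WT embryos, at a log2 fold change of 1.08 (SE 0.34), with an unadjusted p of 0.0121 and an adjusted p of 0.488 by edgeR. Its relative Cxxc4, which binds Tet2 as well, stood at -2.49 (SE 1.30) on 25 and 22 counts in WT, against 2 and 10 in KO, too few for a firm fold. Idh2 and Idh1, the isocitrate dehydrogenases of mitochondria and cytosol, stood at 0.52 (SE 0.39) and -0.41 (SE 0.37).

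Tdg (ENSMUSG00000034674, chr10:82629828-82650799, plus strand), the glycosylase that removes formyl- and carboxylcytosine, had 129 and 180 CPM in WT, against 130 and 178 in KO. Replicate 1 was the lower embryo in both groups, and the groups overlapped almost fully. KO over WT gave a log2 fold change of -0.00 (SE 0.33), with an adjusted p of 0.999 by edgeR. An interval of 2 SE on either side of 0 would contain the fold change of Dnmt3l, so the data do not show that the level was equal. Its processed copy Tdg-ps had at most 2 counts in any embryo, and the opposite-strand neighbour Glt8d2, which shares 367 exon bases, had at most 5.

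Of the base excision repair genes, 13 were tested. In KO 6 had higher and 7 lower values, with a median of -0.18 and 0 called by edgeR or DESeq2. Apex1, the abasic site endonuclease, had 24.2 and 35.7 CPM in WT, against 45.1 and 54 in KO, at 0.72 (SE 0.38), and it shares 877 exon bases with Pip4p1 on the opposite strand. The glycosylase Neil1 stood at -0.94 (SE 0.53) and Neil2 at 1.67 (SE 1.10), the latter on 8 and 13 counts in WT, against 16 and 83 in KO. Gadd45a, a stress gene proposed to recruit repair to methylated DNA, stood at 0.55 (SE 0.48).

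Of the 7 genes that supply S-adenosylmethionine, the methyl donor, 6 had lower and 1, Mtr, a higher value in KO, with a median of -0.31 and 0 called. Shmt2 and Mthfd1, enzymes of one-carbon metabolism, stood at -0.61 (SE 0.31) and -0.60 (SE 0.32), and both separated the groups. They were the 2 genes lower without overlap by TMM CPM, against 18.8% of all genes. By library totals 4 genes of the list were. Ahcy, which clears the product of methyl transfer, stood at -0.41 (SE 0.39), and Mat2a, which makes S-adenosylmethionine, at -0.24 (SE 0.29). Its groups overlapped by TMM CPM, with 331 and 449 CPM in WT, against 314 and 349 in KO.

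Over these 6 lists together, 53 of 55 genes were tested, 19 with higher and 34 with lower values in KO. The median log2 fold change was -0.17, and the median of all genes tested was -0.03. At an unadjusted p under 0.05 by edgeR 1 gene was higher and 1 lower, a share below the 7.82% of all genes. Groups did not overlap for 5 higher genes (9.43%, against 19.4% of all genes) and 17 lower genes (32.1%, against 18.8%). By library totals these counts were 8 and 16. Neither edgeR nor DESeq2 called any of them, and the smallest adjusted p by edgeR was 0.488, that of Cxxc5.

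**Figure D4:**
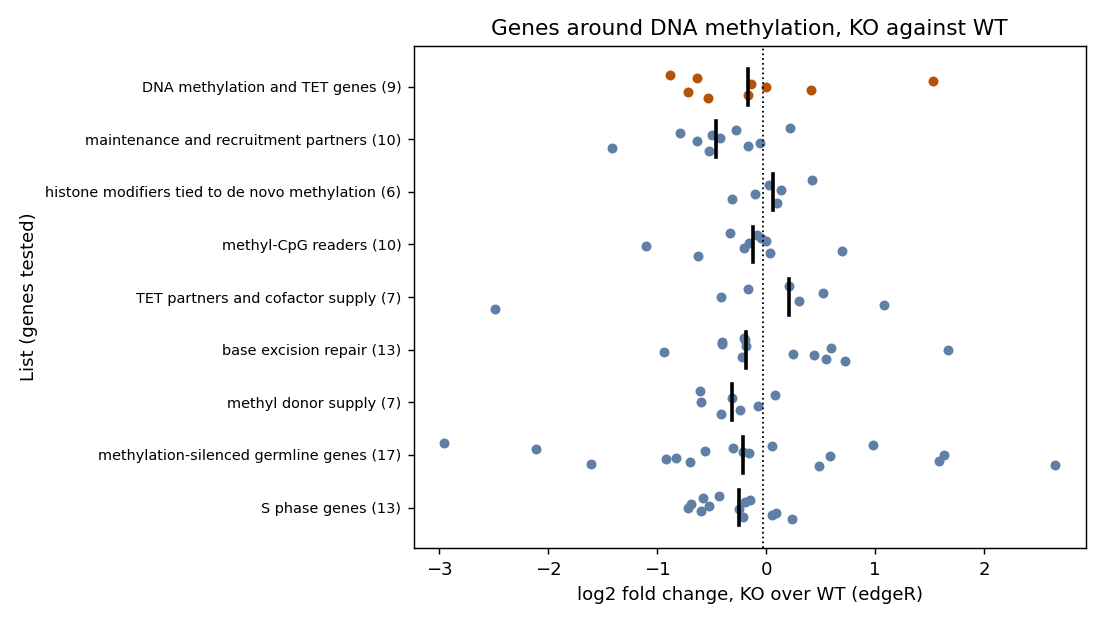
Log2 fold change of KO over WT by edgeR for each tested gene (points) of the members, the pathway lists, the germline list and the S phase list, with the median of each list (bar) and of all genes tested (dotted line). The maintenance and recruitment partners have the lowest median of the pathway lists, -0.46, and the TET partners the highest, 0.21.

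A list of germline genes known as targets of silencing by DNA methylation was set beside the members. Methylation of their promoters was not measured, so their RNA is not a readout of it. Some were not silent in WT, such as Hormad1 at 46.3 and 42.3 CPM. Of 17, all tested, 7 had higher and 10 lower values in KO, and the median was -0.21. Without overlap, 5 were higher, against 19.4% of all genes, and 7 lower, against 18.8%; by library totals both counts were 5. None was called by edgeR at an adjusted p under 0.05, 4 had an unadjusted p under 0.05, against 7.82% of all genes, and DESeq2 called 3, against 1.64%. Sycp3, a component of the meiotic chromosome axis, had 18.3 and 20.5 CPM in WT, against 4.49 and 4.48 in KO. Its log2 fold change was -2.11 (SE 0.45), with an adjusted p of 0.303 by edgeR and 0.0037 by DESeq2, and it overlaps Chpt1 on the opposite strand by 660 exon bases. Tex11, an X-linked meiotic gene, had 5.84 and 8.34 CPM in WT, against 0.519 and 1.29 in KO, at -2.95 (SE 0.73) and an adjusted p of 0.362 by edgeR and 0.0162 by DESeq2. Rpl10l, a testis retrogene, had 54.6 and 77.9 CPM in WT, against 140 and 269 in KO, at 1.63 (SE 0.41) and an adjusted p of 0.368 by edgeR and 0.0178 by DESeq2. It is a close copy of Rpl10, so its counts are uncertain. Hormad1, a meiotic axis gene, had 46.3 and 42.3 CPM in WT, against 25.9 and 21 in KO, at -0.92 (SE 0.36) and an adjusted p of 0.583 by edgeR. The list had no common direction, and its median lay below that of all genes.

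The pentamer GGACT, a common form of the sequence that carries m6A, was counted on the sense strand of the longest protein-coding transcript of each gene. The median over 13224 tested genes was 1.05 per kb, and 3 of 9 members were above it. Tdg had 6 sites or 1.71 per kb, Dnmt3a 15 or 1.55 and Uhrf1 5 or 1.39. Tet2 had 9 or 0.98 per kb and Dnmt3b 4 or 0.926, close to the median, and Dnmt1 and Dnmt3l had 3 and 1. Tet1 had 0.905 per kb and Tet3 0.917, also below the median. The 3 members above the median had log2 fold changes of -0.00, -0.17 and -0.88. Below it, Dnmt3b, Tet3, Dnmt1 and Tet1 stood at -0.72, -0.63, -0.53 and -0.14, and Dnmt3l and Tet2 at 0.41 and 1.53. A link between the count and the RNA difference was not tested. The count describes sequence only, since m6A was not measured.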

How the data were processed

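Whole-embryo polyadenylated RNA was measured in 4 embryos. The authors deposited read counts per gene as whole numbers; per the submitters' processing notes, TopHat, Cufflinks and mm10 were used, with no version or role stated. The sources used here do not give the program that counted the reads, nor a strand setting or annotation for it. Smart-Seq libraries do not mark strand. Genes were placed with GENCODE M21, in which 46574 of 47885 rows were found.

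KO was compared with WT in edgeR (4.0.16, under R 4.3.3): filterByExpr at a minimum count of 10 and total of 15, TMM factors, robust quasi-likelihood fit, and Benjamini-Hochberg adjustment over all 15563 genes at 0.05. Each SE was obtained by dividing the size of the log2 fold change by the root of the F statistic. Alternatives were DESeq2 (1.42.0), limma-voom (limma 3.58.1), RLE scaling, library totals, 2 other filters, each embryo left out, and a replicate block. The tests were first tried on simulated data. The p-values reflect only how far these 4 embryos vary.

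The members and lists were chosen with earlier results of these data known. Named genes are all members, and from each other list up to 4 tested genes with the smallest unadjusted p, genes below the filter, Mettl14, and copies or overlapping genes of members. Of the genes below the filter, 1 is not reported here. Zfp57, Mtr, Cdt1 and Dek were named after their values or positions were seen. Promoter windows came from the RefSeq table, with 1 to 3 annotated starts per member, and all 9 members matched. CPM per kb used the union of annotated exons or the coding length.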

Additional observations from a re-analysis of the deposited data

How the results depend on the processing

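Among the members, 0 were called in any of the 11 alternatives. Their median log2 fold change of -0.17 ran from -0.48 (without KO replicate 1) to -0.20 with 1 embryo left out. Tet1 turned to 0.16 without WT replicate 1 and 0.21 without KO replicate 2, with a range of -0.48 to 0.21. Tdg, near 0, turned to 0.00 under DESeq2, limma-voom and RLE, 0.03 by library totals, 0.01 with no filter, 0.27 without WT replicate 2 and 0.28 without KO replicate 1, with a range of -0.24 to 0.28 with 1 embryo left out. The other 7 members kept their sign in all 11. Over all genes, 0 were called higher or lower by edgeR, against 159 and 103 by DESeq2 and 157 and 101 with no filter. With 1 embryo left out, 14 to 133 were called higher and 1 to 209 lower; the lone embryo is then assumed to vary like the other group. Same-numbered embryos deviated together (correlation 0.329). The labels do not say whether numbers mark a litter or a batch, so what these embryos share is unknown. With a replicate block 52 genes were called higher and 19 lower, 0 members, and 1 germline gene. Germline calls were 3 by DESeq2, 3 with no filter and 0 to 1 with 1 embryo left out, and 4 germline genes were higher at a minimum of 50 counts. With 1 embryo left out, counts of genes higher ran from 1 to 2 for maintenance partners, 2 to 4 for histone modifiers, 2 to 5 for readers, 0 to 4 for methyl donor genes and 1 to 6 for S phase genes. Counts lower ran from 2 to 4 for histone modifiers, 4 to 6 for repair genes and 3 to 7 for methyl donor genes. By coding length the KO minus WT share was 2.06 points for Dnmt3a and -5.1 for Tet3. The cause of these changes was not tested. Counting depth limits genes with few counts, such as Cxxc4 and Neil2.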
